A study of Mus musculus with 8 samples.

Results

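The genes described here are 10 that act on methylated lysine 36 of histone H3 (H3K36), 5 demethylases or erasers (*Kdm2a*, *Kdm2b*, *Kdm4a*, *Kdm4b* and *Kdm4c*) and 5 readers (*Morf4l1*, *Zmynd11*, *Psip1*, *Dnmt3a* and *Dnmt3b*). They were chosen by name, and each was found as 1 row of the 48709 genes in the count table. Their mRNA was measured in 8 mouse lung tumors of the *K* model, 4 labelled *K-Ctrl* and 4 labelled *K-Setd2KO*. All mice were of this model, on a mixed B6J/129S4vJae background. According to the study's methods, every tumor was started by LentiCRISPRv2Cre, a lentiviral vector delivered into the airway that carries Cre recombinase, Cas9 and a guide RNA. The guide was directed at *GFP* in *K-Ctrl* and at *Setd2* in *K-Setd2KO*, so the controls also received Cre and Cas9. For age, the study gives an upper limit at tumor initiation for all of its mouse models together, and none for these mice at harvest. The tumors were not sorted, so host cells contribute mRNA. One label describes flash-frozen tumors and another RNA from cell lines, a difference that the labels do not resolve. The samples are called tumors here because host cell markers were detected. The labels name lung adenocarcinoma as the cell type, while the study calls the *K-Setd2KO* tumors adenomas of low grade, matched to controls by stage. Epithelial and alveolar type 2 markers as well as leukocyte, endothelial and fibroblast markers had summed levels above 0 in every tumor.

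SETD2 is the main enzyme that trimethylates H3K36 in mammalian cells, and it places the mark in the bodies of genes while RNA polymerase II transcribes them. Erasers remove methyl groups again. KDM2 enzymes act on the lower methylation states of H3K36 and bind unmethylated CpG-rich DNA, whereas KDM4 enzymes remove the trimethyl and dimethyl marks of H3K36 and of H3 lysine 9. Readers bind the methylated tail through chromodomains or PWWP domains and bring in deacetylases, elongation regulators, splicing factors or the DNA methyltransferases that methylate gene bodies. The comparison addresses whether mRNA of the genes that remove or read the mark differed when the gene that writes it was targeted.

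Total counts ranged from 5806599 to 21290402 per tumor. Genotypes were compared with edgeR's quasi-likelihood test over 14929 genes with enough counts, and a gene was called when its Benjamini-Hochberg adjusted p was under 0.05. The mRNA of *Setd2* was 132.1 to 152.7 CPM (counts divided by a library size scaled with the trimmed mean of M values, TMM, and set to the usual common total) in *K-Ctrl* and 121.3 to 152.7 CPM in *K-Setd2KO*. Its log2 fold change was −0.05 (SE 0.115, edgeR adjusted p 0.824), so mRNA level does not check the genotype labels, and counts per gene do not show an edited sequence. By *Xist* and Y-linked genes, 1 control tumor and 3 *K-Setd2KO* tumors were female.

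None of the 10 genes was called by edgeR, nor by DESeq2 or limma voom. Over all tested genes, 12.7% were called, 4.97% as higher and 7.74% as lower in *K-Setd2KO*. The 2 largest differences were those of *Kdm4b* and *Kdm4a*, with log2 fold changes of 0.42 and 0.37, and in both genes every *K-Setd2KO* tumor was above every *K-Ctrl* tumor. They were the 2 of 10 genes without overlap between the groups, a share of the genes described that matches the 20.3% of all tested genes without overlap. The same 2 genes had an unadjusted p under 0.05, which 29.9% of all tested genes had. Erasers had a median log2 fold change of 0.14 and readers one of 0.02, against 0.03 over all tested genes.

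**Figure D1:**
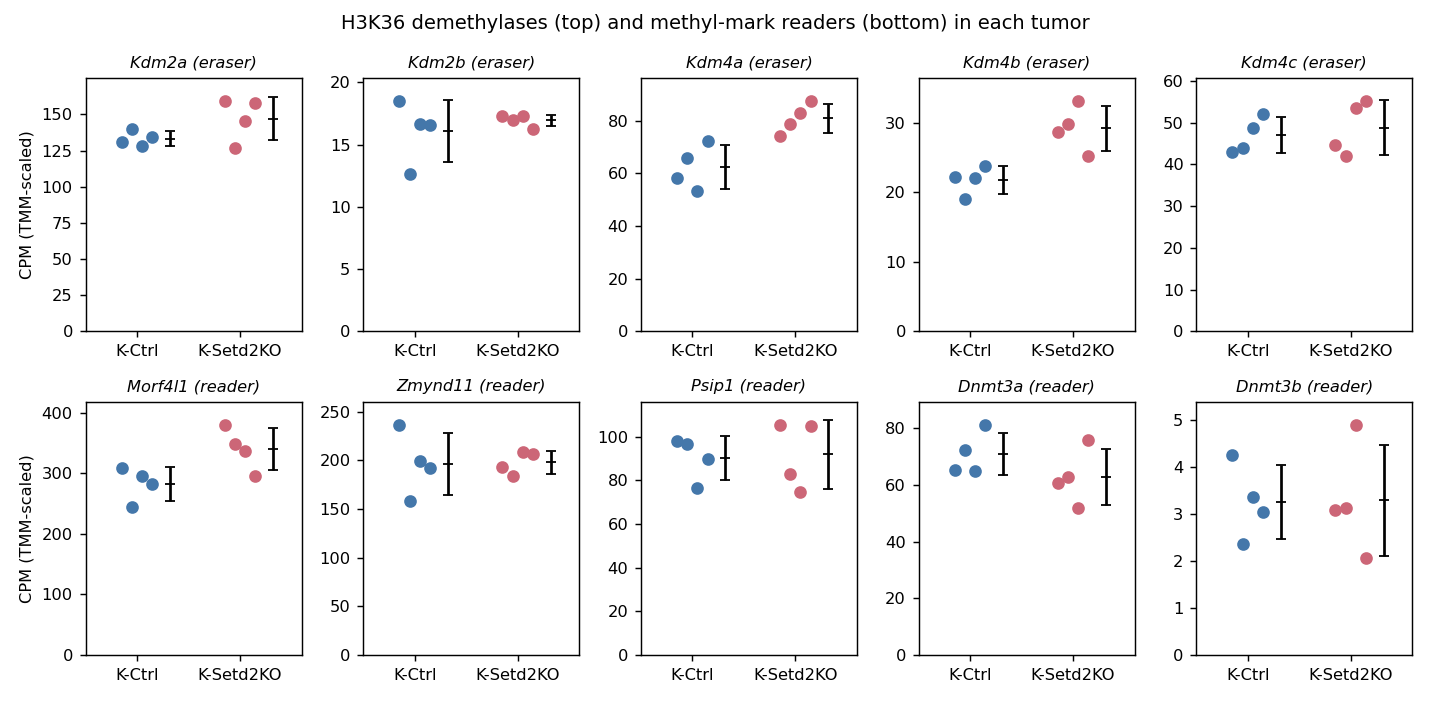
TMM-scaled CPM of the 5 erasers (top) and 5 readers (bottom), with 1 point per tumor in replicate order and the mean with its SD (n = 4) beside each group. Only *Kdm4a* and *Kdm4b* show every *K-Setd2KO* point above every *K-Ctrl* point.

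The KDM4 family was examined first. *Kdm4a* (ENSMUSG00000033326.15, GRCm38 chromosome 4, 118136957 to 118180043, minus strand) encodes a JmjC-domain trimethyl-lysine demethylase with reader domains of its own. It was at 58.17, 65.72, 53.09 and 72.38 CPM in *K-Ctrl* replicates 1 to 4 and at 74.22, 78.71, 83.06 and 87.29 CPM in *K-Setd2KO* replicates 1 to 4. The groups did not overlap, and the gap between the highest control, replicate 4, and the lowest *K-Setd2KO* tumor, replicate 1, was narrow. The means were 62.3 ± 8.47 and 80.8 ± 5.62 CPM (SD, n = 4 each), a 1.30-fold difference (95% interval 1.07 to 1.58). The log2 fold change of 0.37 (SE 0.126) had an edgeR p of 0.0150 and an adjusted p of 0.0811, while an exact permutation test over tumors (two-sided) gave 0.0286, the smallest p that 4 against 4 tumors allow.

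*Kdm4b* (ENSMUSG00000024201.12, chromosome 17, 56326062 to 56402870, plus strand), which encodes a closely related demethylase, had the smallest p of the 10 genes and ranked 2606 among the tested genes. Its values were 22.22, 18.99, 22.07 and 23.74 CPM in *K-Ctrl* and 28.66, 29.75, 33.04 and 25.16 CPM in *K-Setd2KO*. *K-Setd2KO* replicate 4, the shallowest library, was the lowest of its group and nearest to the controls. Group means were 21.8 ± 1.99 and 29.2 ± 3.25 CPM (SD, n = 4 each), a 1.34-fold difference (95% interval 1.08 to 1.66). The log2 fold change of 0.42 (SE 0.138) had an edgeR p of 0.0131, an adjusted p of 0.0749 and an exact permutation p of 0.0286. Over 16 alternative fits the adjusted p ranged from 0.0559 to 0.177 for *Kdm4b* and from 0.0512 to 0.212 for *Kdm4a*, and the direction was kept in all 16 for both.

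*Kdm4c* (ENSMUSG00000028397.13, chromosome 4, 74242497 to 74405860, plus strand), the third widely expressed family member, gave a different picture. Its CPM was 43.03, 43.87, 48.84 and 52.21 in *K-Ctrl* and 44.63, 41.92, 53.62 and 55.11 in *K-Setd2KO*, so both groups held low and high tumors. Its difference of 0.05 on the log2 scale (SE 0.133, edgeR adjusted p 0.821) had a 95% interval of −0.25 to 0.35. The intervals of *Kdm4c*, *Kdm4a* and *Kdm4b* overlapped, and a difference between the genes' responses was not tested.

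Sex was unequal between the groups, so these genes were also compared within it, 1 tumor against 3 in either sex and without a test. *Kdm4a* was at 61.2 CPM in the 3 male controls and 83.1 CPM in the male *K-Setd2KO* tumor, and at 65.7 CPM in the female control and 80.1 CPM in the 3 female *K-Setd2KO* tumors. *Kdm4b* was at 22.7 and 33.0 CPM in males and at 19.0 and 27.9 CPM in females. Since the pooled groups of these 2 genes did not overlap, those within a sex could not overlap either, and only the sizes of the differences are of use. When edgeR also fitted a term for sex, the log2 fold change was 0.36 for *Kdm4a* (adjusted p 0.174) and 0.55 for *Kdm4b* (adjusted p 0.0568).

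Marker lists of tumor and host cells were read beside these values. Macrophage markers (6 genes, among them *Csf1r* and *Marco*) summed to 454 to 1438 CPM in *K-Ctrl* and 154.9 to 304.7 CPM in *K-Setd2KO*, with 4 called lower. Leukocyte markers (6) summed to 970.8 to 1745 and 517.1 to 745.7 CPM with 4 called lower. Lymphocyte markers (6) summed to 11.7 to 85.6 and 4.43 to 19.1 CPM with 0 called by edgeR or limma voom, 3 by DESeq2 and 3 at an unadjusted p under 0.05 by edgeR. Endothelial markers (6) summed to 437.3 to 1686 and 166.7 to 419.4 CPM with 2 called lower (6 by DESeq2 and 1 by limma voom), and fibroblast markers (6) to 497.1 to 1121 and 141.4 to 583.4 CPM with 1 called lower (2 by DESeq2 and 1 by limma voom). Epithelial markers (6) summed to 2520 to 3436 and 2993 to 3705 CPM with 3 values positive, 3 negative and 2 called higher, and alveolar type 2 markers (6) to 39332 to 58736 and 47372 to 65940 CPM with 3 positive, 3 negative and 1 called higher. Proliferation genes (8) summed to 305.9 to 329.9 and 114.3 to 229.0 CPM with 2 called lower (4 by DESeq2 and 3 by limma voom). In the macrophage list DESeq2 called 5, and for the epithelial, alveolar type 2 and leukocyte lists DESeq2 and limma voom gave the same counts as edgeR. The summed levels of the 2 groups did not overlap for the macrophage, leukocyte, endothelial and proliferation lists and overlapped for the other lists. No marker was at 0 in all tumors. The part of these marker levels in the values of the erasers and readers was not tested, and in unsorted tissue fewer cells of a type and less RNA per cell cannot be told apart.

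Gene-level counts add up all transcripts of a gene, whichever start site they come from, which matters for *Kdm4c*, for which RefSeq (GRCm38.p6) lists 2 start sites 9382 bases apart. The 250 bases before each start are shown with that of *Kdm4a*, a family member on the same chromosome, to show how unlike the 2 starts of *Kdm4c* are in CpG, the dinucleotide that KDM2 proteins and DNA methyltransferases bind or modify. Each is written 5′ to 3′ on the strand of its gene, and capitals mark every CG.
*Kdm4a*, chr4:118180044-118180293, minus strand: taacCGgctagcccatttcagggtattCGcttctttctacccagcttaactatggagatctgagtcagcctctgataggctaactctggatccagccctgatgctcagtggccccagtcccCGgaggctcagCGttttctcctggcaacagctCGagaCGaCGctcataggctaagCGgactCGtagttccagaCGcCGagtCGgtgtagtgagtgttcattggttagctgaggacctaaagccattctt
*Kdm4c*, upstream start, chr4:74242247-74242496, plus strand: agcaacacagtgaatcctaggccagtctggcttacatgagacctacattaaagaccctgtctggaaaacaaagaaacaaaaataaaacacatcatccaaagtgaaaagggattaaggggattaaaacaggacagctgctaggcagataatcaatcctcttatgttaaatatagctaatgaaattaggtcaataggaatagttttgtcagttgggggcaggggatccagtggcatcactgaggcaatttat
*Kdm4c*, downstream start, chr4:74251629-74251878, plus strand: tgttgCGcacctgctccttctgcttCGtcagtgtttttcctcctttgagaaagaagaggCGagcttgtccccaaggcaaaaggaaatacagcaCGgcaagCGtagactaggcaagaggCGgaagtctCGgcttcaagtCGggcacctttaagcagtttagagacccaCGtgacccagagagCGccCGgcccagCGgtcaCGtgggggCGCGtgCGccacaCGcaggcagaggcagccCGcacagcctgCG
The *Kdm4a* sequence held 12 CG, a number reached by 33.5% of the 32851 RefSeq windows of this length. The downstream start of *Kdm4c* was preceded by 19 CG (19.7% of windows held as many) and the upstream start by 0, where 92.1% of windows held at least 1. The table has windows for 7 of the 10 genes, 16 in all, of which 14 exceeded the median of 6 CG. Windows for *Kdm2a*, *Kdm4b* and *Psip1* are not shown. The most CG-rich were 1 start of *Dnmt3a* with 40 (1.31% of windows held as many) and starts of *Dnmt3a*, *Kdm2b* and *Zmynd11* with 38 each. Which start was used in these tumors cannot be read from gene counts.

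**Figure D2:**
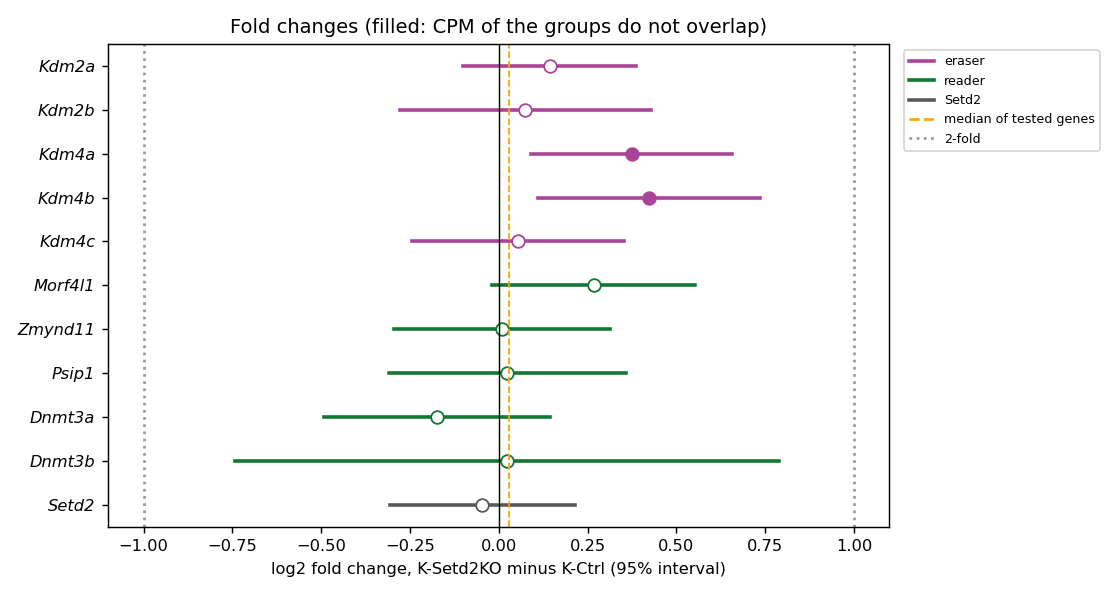
Log2 fold change (*K-Setd2KO* minus *K-Ctrl*) of the 10 genes and of *Setd2*, with the 95% interval of the edgeR fit. Filled points are *Kdm4a* and *Kdm4b*, the dashed line is the median of all tested genes (0.03), and every interval lies inside the dotted 2-fold lines.

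Within the KDM2 family, *Kdm2a* (ENSMUSG00000054611.16, chromosome 19, 4314419 to 4398285, minus strand), a demethylase of dimethylated H3K36 at CpG-rich promoters, was the more abundant gene. It was at 131.1, 139.6, 127.8 and 134.3 CPM in *K-Ctrl* and at 159.0, 126.8, 145.1 and 157.6 CPM in *K-Setd2KO*. Of the *K-Setd2KO* tumors 3 were above all controls and replicate 2 was below all of them. On the log2 scale the groups differed by 0.14 (SE 0.108, 95% interval −0.10 to 0.39, edgeR adjusted p 0.411).

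*Kdm2b* (ENSMUSG00000029475.17, chromosome 5, 122870665 to 122989823, minus strand) encodes the CpG-binding subunit of a variant Polycomb repressive complex, PRC1.1. Its CPM was 18.47, 12.61, 16.67 and 16.60 in *K-Ctrl* and 17.26, 16.98, 17.26 and 16.26 in *K-Setd2KO*. The *K-Setd2KO* tumors lay close together, inside the range of the controls, and the log2 fold change was 0.07 (SE 0.157, 95% interval −0.28 to 0.43, edgeR adjusted p 0.788). The gene overlaps *Rnf34* and an antisense gene on the opposite strand and 2 genes on its own strand, and whether counting used the strand is not given in the sources used here, so its reads may be shared with them.

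Among readers, *Morf4l1* (ENSMUSG00000062270.13, chromosome 9, 90091665 to 90114774, minus strand) encodes MRG15, a chromodomain protein of histone acetyltransferase and deacetylase complexes that also takes part in splice site choice. Its CPM was 308.8, 243.7, 295.3 and 282.3 in *K-Ctrl* and 379.3, 348.6, 336.5 and 295.6 in *K-Setd2KO*. *K-Setd2KO* replicates 1 to 3 were above all controls, and replicate 4 was level with the upper controls. The log2 fold change of 0.27 (SE 0.127, 95% interval −0.02 to 0.55) had an edgeR adjusted p of 0.194 and an exact permutation p of 0.0571. RefSeq lists the near copies *Morf4l1b* and *Morf4l1-ps1*, which were not found by name in the count table, where they may carry other symbols. Whether reads of this gene were shared with such copies was not tested.

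*Zmynd11* (ENSMUSG00000021156.16, chromosome 13, 9684836 to 9765321, minus strand) encodes a reader of trimethylated H3K36 on the histone variant H3.3 that restrains elongation. It was at 236.1, 158.2, 199.4 and 191.8 CPM in *K-Ctrl* and at 192.7, 183.8, 208.1 and 206.4 CPM in *K-Setd2KO*. The controls held both the highest and the lowest tumor. Between the group levels the log2 difference was 0.01 (SE 0.135, 95% interval −0.29 to 0.31, edgeR adjusted p 0.970). Antisense genes overlap the locus.

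*Psip1* (ENSMUSG00000028484.16, chromosome 4, 83455680 to 83486459, minus strand) encodes LEDGF, a PWWP-domain protein that tethers the MLL complex and splicing factors to transcribed chromatin. Its CPM was 98.12, 96.90, 76.50 and 89.96 in *K-Ctrl* and 105.4, 82.76, 74.66 and 104.9 in *K-Setd2KO*. The *K-Setd2KO* tumors split into 2 above and 1 below the range of the controls, with 1 inside it. This left a log2 fold change of 0.02 (SE 0.148, 95% interval −0.31 to 0.36, edgeR adjusted p 0.930). *Snapc3* overlaps it on the opposite strand.

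*Dnmt3a* (ENSMUSG00000020661.15, chromosome 12, 3806007 to 3914443, plus strand) encodes a *de novo* DNA methyltransferase whose PWWP domain binds methylated H3K36. It was at 65.43, 72.19, 64.91 and 81.12 CPM in *K-Ctrl* and at 60.86, 62.72, 51.96 and 75.99 CPM in *K-Setd2KO*. Of the *K-Setd2KO* tumors 3 were below all controls, while replicate 4 was above 3 of them. The log2 fold change was −0.17 (SE 0.141, 95% interval −0.49 to 0.14, edgeR adjusted p 0.441), the 1 negative value among the 10 genes. The median over 554 genes of chromosome 12, relative to the control mean on the log2 scale, was −0.11, −0.06, −0.12 and −0.14 in *K-Setd2KO* replicates 1 to 4, and its part in the value of *Dnmt3a* was not tested.

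*Dnmt3b* (ENSMUSG00000027478.15, chromosome 2, 153649450 to 153687730, plus strand), the enzyme that methylates bodies of active genes, was scarce at 12 to 73 counts per tumor. Its CPM was 4.25, 2.35, 3.37 and 3.03 in *K-Ctrl* and 3.08, 3.14, 4.89 and 2.05 in *K-Setd2KO*. The spread within each group exceeded the difference between them, a log2 fold change of 0.02 (SE 0.340, edgeR adjusted p 0.972), whose 95% interval, −0.74 to 0.79, was the widest of the 10. Antisense genes overlap both *Dnmt3a* and *Dnmt3b*. The close copy *Dnmt3c* had 0 to 2 counts per tumor.

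The 95% intervals give a range of change for each gene by itself and are not adjusted for the number of genes. They differ from the rule for a call, since those of *Kdm4a* and *Kdm4b* excluded no change and neither gene was called. For all 10 genes the interval lay inside a 2-fold change in either direction, as it did for 53.9% of all tested genes. For 7 of 10 it lay inside a 1.5-fold change, as for 25.6% of tested genes, and the exceptions were *Kdm4a*, *Kdm4b* and *Dnmt3b*. How interval width varies with abundance was not tested, so these shares set no standard for genes of like level.

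Levels were compared between genes per length, as RPKM, the CPM divided by the summed exon length in kilobases. In *K-Ctrl* the order was *Morf4l1* at 29.0, *Zmynd11* at 27.8, *Psip1* at 17.8, *Kdm4a* at 10.8, *Kdm2a* at 9.32, *Kdm4c* at 8.07, *Kdm4b* at 4.44, *Dnmt3a* at 4.26, *Kdm2b* at 1.48 and *Dnmt3b* at 0.637 RPKM. The order was the same in *K-Setd2KO*. In *K-Ctrl* the ranges of 4 tumors overlapped between *Morf4l1* and *Zmynd11*, *Kdm4a* and *Kdm2a*, *Kdm2a* and *Kdm4c*, and *Kdm4b* and *Dnmt3a*. In *K-Setd2KO* they overlapped between *Psip1* and *Kdm4a* and between *Kdm2a* and *Kdm4c*. *Kdm4b* was above *Dnmt3a* in 2 of 4 control tumors and in 4 of 4 *K-Setd2KO* tumors. The exon length is the union over all isoforms, which lowers the RPKM of genes with long, rarely used exons.

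**Figure D3:**
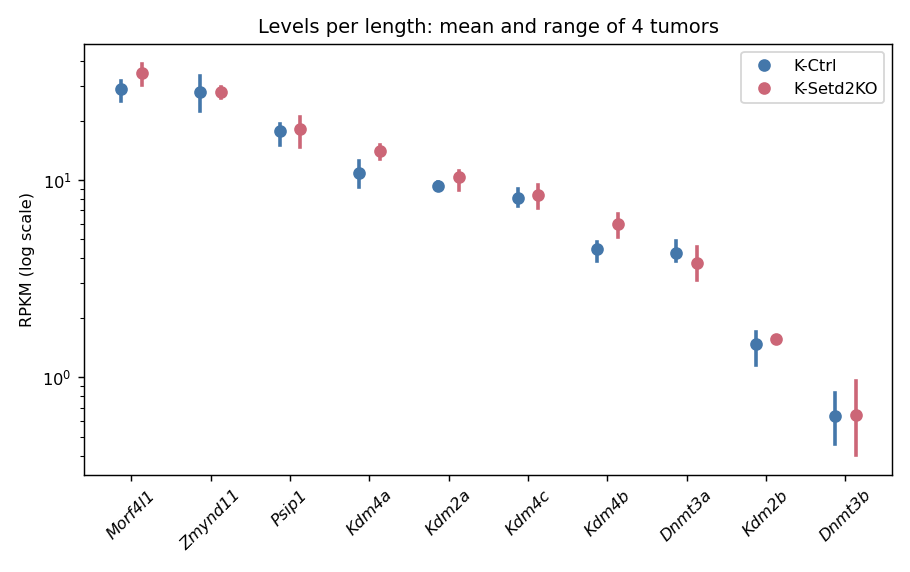
Mean (point) and range (line) of RPKM over 4 tumors for each gene and genotype on a log axis, ordered by the *K-Ctrl* mean. Readers take the top 3 places and the last one, and the order does not change with genotype.

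Summed over the 5 erasers, the level per length was 32.9, 33.7, 32.6 and 37.3 RPKM in *K-Ctrl* and 39.1, 37.3, 42.1 and 42.2 RPKM in *K-Setd2KO*. The lowest *K-Setd2KO* tumor, replicate 2, stood level with the highest control. The means were 34.1 ± 2.16 and 40.2 ± 2.39 RPKM (SD, n = 4 each). The 5 readers summed to 79.5 ± 7.38 and 85.4 ± 4.05 RPKM, with overlapping ranges of 71.3 to 89.2 and 82.5 to 91.2 RPKM. Relative to the RPKM of *Setd2* in the same tumor, the erasers stood at 2.63 ± 0.244 and 3.21 ± 0.346 and the readers at 6.10 ± 0.365 and 6.82 ± 0.592 (SD, n = 4 each), and both pairs of ranges overlapped.

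The makeup of the KDM4 family was compared next, as a share of its summed RPKM. *Kdm4c* took 33.6%, 33.1%, 38.0% and 34.0% in *K-Ctrl* and 29.1%, 26.8%, 30.4% and 31.9% in *K-Setd2KO*. Every *K-Setd2KO* tumor was below every control, with means of 34.7% ± 2.24 and 29.5% ± 2.16 (SD, n = 4 each). *Kdm4a* took 46.2% ± 3.51 and 49.4% ± 1.65, and *Kdm4b* 19.1% ± 1.72 and 21.1% ± 2.53, both with overlap between the groups. The share follows from the 3 CPM values given above and is a description without a test. In the KDM2 family *Kdm2a* took 86.3% ± 2.17 and 86.8% ± 1.33 of the RPKM, and in the DNMT3 pair *Dnmt3a* took 86.9% ± 3.56 and 85.1% ± 6.36.

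**Figure D4:**
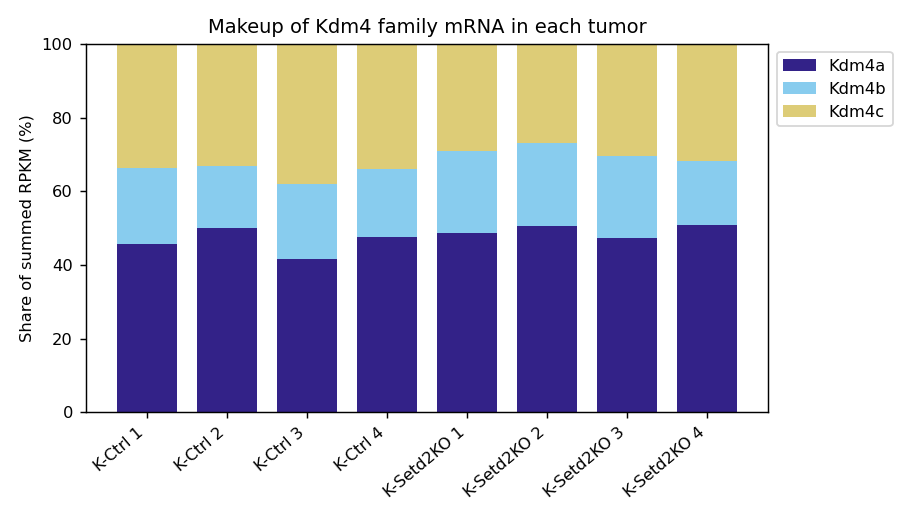
Share of summed KDM4 RPKM (%) taken by *Kdm4a*, *Kdm4b* and *Kdm4c* in each tumor, with bars stacked to 100%. The upper segment, *Kdm4c*, spans 33.1% to 38.0% in the 4 control tumors and 26.8% to 31.9% in the 4 *K-Setd2KO* tumors.

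Genes that act beside the 10 were read from 7 lists. Of 85 tested genes in these lists 9 were called, 7 higher and 2 lower, or 10.6% against the 12.7% of all tested genes. The split was 6 higher and 0 lower with the sex term, 7 and 4 with DESeq2 and 5 and 4 with limma voom, and no lower call was left without *K-Ctrl* replicate 1, *K-Ctrl* replicate 3 or *K-Setd2KO* replicate 3. Other readers of methylated H3K36 (18 genes) held 5 of the 9. *Glyr1*, a nucleosome-binding PWWP protein, was at 150.7, 153.8, 161.8 and 164.7 CPM in *K-Ctrl* and 231.9, 229.2, 240.7 and 234.7 CPM in *K-Setd2KO*, 2 tight and separate groups. It rose by 0.57 on the log2 scale (SE 0.0944, edgeR adjusted p 0.00922). *Brpf3* and *Brpf1*, PWWP scaffolds of MYST acetyltransferases, rose by 0.65 (SE 0.119, edgeR adjusted p 0.0126) and 0.49 (SE 0.118, edgeR adjusted p 0.0285).

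*Hdgfl3*, a PWWP protein of the hepatoma-derived growth factor family, fell from 24.07, 10.67, 14.50 and 7.76 CPM to 2.82, 6.04, 2.77 and 1.20 CPM. Its log2 fold change was −2.12 (SE 0.493, edgeR adjusted p 0.0262). The endothelial marker *Cdh5* was at 537.6, 115.6, 273.9 and 148.6 CPM in *K-Ctrl* and at 105.9, 73.74, 53.99 and 47.92 CPM in *K-Setd2KO*. Both genes were highest in control replicates 1 and 3, while control replicates 2 and 4 stood in opposite order. Within *K-Setd2KO*, *Hdgfl3* was highest in replicate 2 and *Cdh5* in replicate 1. All 6 endothelial markers were lower on average in *K-Setd2KO*, with summed levels of 437.3 to 1686 and 166.7 to 419.4 CPM, and their part in the value of *Hdgfl3* was not tested. *Phf1*, a Tudor-domain subunit of Polycomb complex 2 and the fifth by p, rose by 0.58 (SE 0.159, edgeR adjusted p 0.0454). The other 13 readers were not called, and the list median was 0.09.

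Of 17 tested demethylases outside the 10, only *Kdm3a* was called. This demethylase of H3 lysine 9, a known hypoxia-responsive gene, was at 61.99, 53.53, 55.72 and 49.98 CPM in *K-Ctrl* and at 172.1, 108.6, 288.3 and 181.3 CPM in *K-Setd2KO*. It rose by 1.76 on the log2 scale (SE 0.260, edgeR adjusted p 0.00738). An unadjusted p under 0.05 by edgeR was found for 7 of the 17, against 29.9% of all tested genes. The list median was 0.09, and *Kdm4d* had too few counts to be tested.

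Of 9 partners of KDM2B in PRC1.1, *Pcgf1*, the ring finger subunit that defines the complex, was the only one called, at 4.92, 5.13, 5.31 and 4.20 CPM in *K-Ctrl* and 7.09, 8.80, 13.4 and 9.24 CPM in *K-Setd2KO* (log2 fold change 0.97, SE 0.245, edgeR adjusted p 0.0338). *Kdm3a*, *Brpf1* and *Pcgf1* lie on chromosome 6, whose 839 genes had a median of 0.33, −0.03, 0.32 and 0.38 on the log2 scale in *K-Setd2KO* replicates 1 to 4 relative to the control mean. Of the 9 tested genes on chromosome 6 in the 7 lists, 8, 4, 9 and 9 were above their highest control in *K-Setd2KO* replicates 1 to 4. The same held for 50.7%, 29.1%, 51.0% and 53.6% of all 839 tested genes of chromosome 6 and for 28.3%, 31.3%, 34.1% and 32.4% of all tested genes, and nothing particular to the 9 genes is read from their count. For *Kdm3a*, *Brpf1* and *Pcgf1* every *K-Setd2KO* tumor was above every control, so replicate 2 had to be above them too. In replicate 2, where the chromosome median was not raised, these genes were at 108.6, 57.21 and 8.80 CPM. *Kdm5a* and *Kdm7a*, named after their values were seen, were at 89.19 and 87.73 CPM in that tumor, the first below and the second inside the range of its controls. The part of the chromosome-wide shift in the values of these genes was not tested. None of the 10 genes lies on chromosome 6, and on their chromosomes the medians in *K-Setd2KO* tumors ranged from −0.14 to 0.07.

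The partners of MRG15 in its acetyltransferase and deacetylase complexes (17 genes) held 0 genes called by edgeR, DESeq2 or limma voom and 4 at an unadjusted p under 0.05 by edgeR, against 29.9% of all tested genes. Their values were positive in 15 and negative in 2, with a median of 0.20, where 52.7% of all tested genes were positive and the median was 0.03. Among 12 tested genes of DNA methylation, *Uhrf2*, a hemimethylated-DNA-binding ubiquitin ligase, fell by 0.44 (SE 0.113, edgeR adjusted p 0.0345), from 66.5 ± 3.72 to 48.8 ± 4.86 CPM (SD, n = 4 each). *Dnmt1*, the maintenance methyltransferase, named after its values were seen, had a log2 fold change of −0.50 (SE 0.145, edgeR adjusted p 0.0515) and no overlap between the groups. All 8 proliferation genes had negative values in the same tumors, with summed levels of 305.9 to 329.9 CPM in *K-Ctrl* and 114.3 to 229.0 CPM in *K-Setd2KO*, and their part in the values of *Uhrf2* and *Dnmt1* was not tested. Partners of LEDGF (5) held 0 genes called by edgeR, 1 each by DESeq2 and limma voom, and 3 at an unadjusted p under 0.05 by edgeR (29.9% of all tested genes), with a median of −0.20. Of 7 genes for histone H3.3 and its chaperones, *Cabin1*, a subunit of the HIRA complex, rose by 0.63 (SE 0.166, edgeR adjusted p 0.0387), from 63.9 ± 9.39 to 98.8 ± 19.7 CPM (SD, n = 4 each). *Glyr1*, *Brpf3* and *Kdm3a* were called in all 16 alternative fits, while *Brpf1* was called in 8 of 16, *Cabin1* in 9, *Pcgf1* in 7, *Uhrf2* in 7, *Phf1* in 5 and *Hdgfl3* in 10 of the 15 that kept it. When edgeR also fitted sex, *Cabin1* (adjusted p 0.121), *Hdgfl3* (adjusted p 0.0823) and *Uhrf2* (adjusted p 0.0784) were not called.

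**Figure D5:**
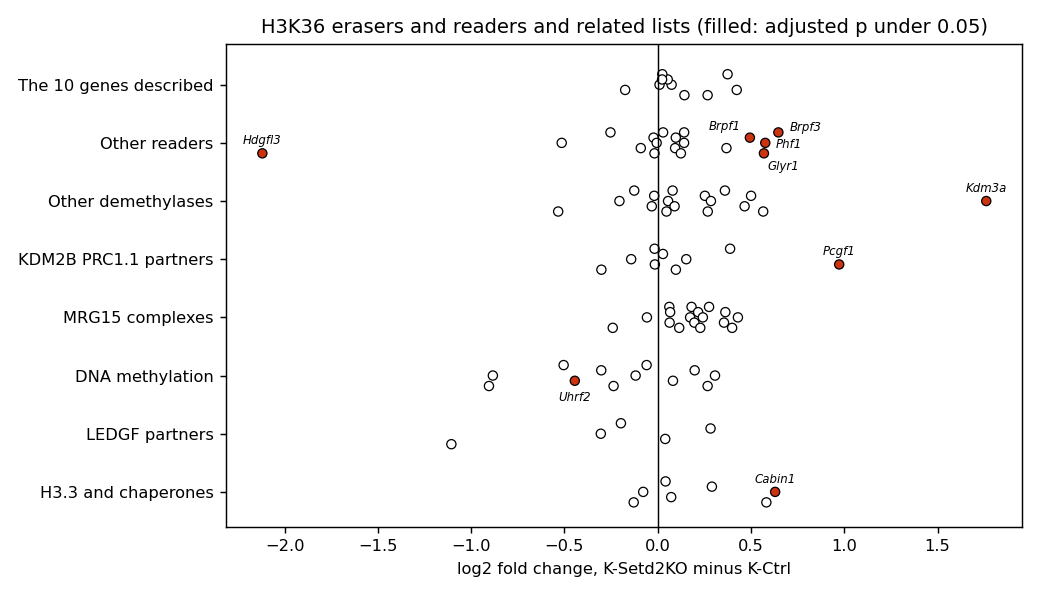
Log2 fold change (*K-Setd2KO* minus *K-Ctrl*) of the 10 genes and of the tested genes of 7 related lists, with 1 point per gene spread vertically for legibility. Filled, named points had an edgeR adjusted p under 0.05, which 9 of 85 related genes and 0 of the 10 genes had.

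Across the 8 tumors, the protein-coding genes whose log2 CPM was most like that of *Kdm4b* were *Zbtb24*, *Mcat* and *Iars2*, with Pearson's r of 0.99, 0.98 and 0.98. They were the highest of 13353 genes compared, over 8 tumors that fall into 2 genotypes, and are given as a description.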

How the data were processed

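mRNA of 8 lung tumors, 4 per genotype, was sequenced with a stranded poly(A) kit. The authors deposited raw counts per gene, without normalization. The submitters' processing notes name STAR 2.5.2b, featureCounts 1.5.0-p1 and GRCm38.p4. The annotation release and strand setting are not given in the sources used here. Symbols came from GENCODE M21, in which 48349 of 48709 identifiers (99.26%) were found. Genes at 0 in all tumors numbered 20284. The total of the shallowest library, 5806599 counts, makes 3 counts equal to 0.517 CPM, and that of the deepest, 21290402, to 0.141 CPM. Within-group pairs of libraries differed by at least 30.5 chi-square units per degree of freedom, so none was treated as a copy. Nothing states that the tumors came from separate mice, so p-values measure the spread between these samples.

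Counts were fitted in R 4.3.3 with edgeR 4.0.16 (filterByExpr, TMM, robust quasi-likelihood, genotype only, Benjamini-Hochberg over 14929 genes). SE is the absolute log2 fold change over the square root of F. The exact permutation test was two-sided over the 70 assignments of tumors on log2(CPM + 0.01). The fits were tested on simulated data. Alternatives were RLE and upper-quartile factors, no filter, at least 10 counts in every tumor, DESeq2 1.42.0, limma voom 3.58.1, each tumor left out, a replicate block and a sex term. The study used DESeq2.

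The 10 genes and the lists were chosen with earlier results of these data known. Named genes are the 10, *Setd2*, called genes of each related list (at most the 4 with the smallest p), and the 3 genes most correlated with the gene of smallest p. *Phf1*, *Dnmt1*, *Kdm5a* and *Kdm7a* were named after their values were seen, as were the within-sex means, interval limits, chromosome medians, near copies and CG counts. Class sums and family shares were not in the planned tests. One allele shared by all mice is not reported here.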

Additional observations from a re-analysis of the deposited data

Results flagged for a closer look

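Of 54 groups of 4 values examined, 1 held a tumor far from the others of its group, where chance gives 2.7. *K-Setd2KO* replicate 4 had a *Kdm4b* share of 17.3% of summed KDM4 RPKM, while the other *K-Setd2KO* tumors had 22.2%, 22.6% and 22.3%. The gap to the nearest tumor was 0.926 of the group's whole range, above Dixon's 95% limit for 4 values. The control tumors ranged from 17.03% to 20.6%, so the value lay inside their range. This tumor had the smallest library, and the part of depth in the value was not tested.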

How the results depend on the processing

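None of the 10 genes was called in any of the 16 alternatives. The erasers' median log2 fold change stayed positive, between 0.10 and 0.21. The readers' median was 0.14 with the sex term and −0.083 to 0.108 when 1 tumor was left out, lowest without *K-Ctrl* replicate 2. DESeq2 called 3193 genes and the fit with a sex term 1237, and leaving out 1 tumor gave 763 to 2058, lowest without *K-Ctrl* replicate 3 and also under the main count by over 1.5 times without *K-Ctrl* replicate 1 (938), *K-Ctrl* replicate 2 (1126) and *K-Setd2KO* replicate 3 (1011). The related genes called numbered 5 without a filter (4 higher, 1 lower), 6 with the sex term and 3 to 10 when 1 tumor was left out (3 without *K-Ctrl* replicate 1 or *K-Setd2KO* replicate 3, 4 without *K-Ctrl* replicate 2 or 3). Same-numbered tumors deviated together with correlations of −0.07, −0.03, 0.19 and −0.02. No clear pairing by number was seen, though 4 tumors per group cannot exclude one. The fit with a replicate block called 1341 genes, 5 related genes and 0 of the 10, and gave *Dnmt3b* −0.0048. Signs near 0 also turned for *Zmynd11* (−0.0235), *Psip1* (−0.0086) and *Dnmt3b* (−0.00597) at 10 counts in every tumor, for *Zmynd11* (−0.00058) with DESeq2 and for *Psip1* (−0.11) with the sex term. With 1 tumor left out, values spanned −0.0273 to 0.145 for *Kdm2b*, −0.0141 to 0.114 for *Kdm4c*, −0.083 to 0.108 for *Zmynd11*, −0.0505 to 0.115 for *Psip1* and −0.22 to 0.18 for *Dnmt3b*. *Dnmt3a* spanned −0.282 (without *K-Setd2KO* replicate 4) to −0.0909 (without *K-Setd2KO* replicate 3), and *Setd2* −0.112 to −0.00136. The sex term moved *Dnmt3b* to 0.36, *Kdm2b* to 0.21, *Zmynd11* to 0.14, *Kdm4c* to 0.13 and *Dnmt3a* to −0.28. The causes were not tested. *Dnmt3b* had 12 to 73 counts per tumor, and the part of depth was not tested.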
